A study of Xiphophorus maculatus with 65 samples.

Results

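Skin of 2 inbred strains of the platyfish *Xiphophorus maculatus* was compared in the libraries that are dated to 1 calendar year and carry no hour of the day: 5 libraries of JpA males aged 20 months and 4 libraries of JpB males (labelled 106F) aged 11 months. They were chosen by strain, tissue, age and label date alone, and are 9 of the 65 RNA-seq libraries of the series, 55 of which are skin. The labels describe every one as an untreated control. The 4 JpB libraries (replicates 26, 27, 28 and 29) and JpA replicates 22 and 24 carry the control word 0pt, and JpA replicates 14, 23 and 25 carry the word Sham. All JpB libraries are dated March and all JpA libraries October, so strain, age and label date cannot be told apart in any of the values that follow. No label says that fish were pooled, and fish labels x and z each occur once with 0pt (JpA replicates 22 and 24) and once with Sham (JpA replicates 23 and 25); whether these are the same fish is not stated, and p-values measure only the spread between these libraries.

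JpA and JpB carry different macromelanophore patterns, spotted dorsal in JpA and spotted side in JpB. Fish skin holds a living epidermis with mucus-secreting cells, a dermis with collagen, scales and several kinds of pigment cell (black melanophores, reflecting iridophores and yellow xanthophores), and blood vessels, nerves and muscle beneath. Epidermis and scales renew themselves through life, so that dividing cells are part of normal skin. A bulk library sums all of these, and fewer cells of a type and less RNA per cell cannot be told apart.

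The JpA libraries held 27235335 to 32974415 counts and the JpB libraries 49061356 to 66617590. Of 27242 gene models, 19516 had enough counts to be tested. Levels are given as CPM (counts per 1e6 counts) after scaling between libraries, and folds as log2 of JpB over JpA from edgeR's quasi-likelihood test. A gene was said to differ at a Benjamini-Hochberg adjusted p under 0.05, and was called where the change was also at least 1 on the log2 scale and the area under the ROC curve at least 0.8, the limits used in the study. JpA replicate 25 stood apart from the other libraries: the median of its correlations with the rest was 0.892 on the log2 scale, against 0.952 to 0.967 for the other 8, and its summed immediate early and heat shock genes reached 2129 CPM against 938 to 1219. Several values are therefore also given without it.

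Among genes with a symbol and a mean of 1 CPM or more, the largest fold higher in JpB was that of *tmem8a* on chromosome 6 (5527205 to 5543945 of X_maculatus-5.0-male), which encodes a membrane protein. It was measured at 1.13, 0.976, 1.07 and 0.646 CPM in JpA replicates 14, 22, 23 and 24, at 4.38 CPM in JpA replicate 25, and at 45.9, 67.5, 62.5 and 60.4 CPM in JpB. Every JpB library lay more than 10-fold above every JpA library. The mean was 1.64 ± 1.54 CPM (SD, n = 5) in JpA and 59.1 ± 9.31 CPM (SD, n = 4) in JpB, a log2 fold of 5.17 (SE 0.51, adjusted p = 0.00115), and of 5.94 without JpA replicate 25. In the 24-month JpA skin libraries (n = 16), which were not part of the contrast, *tmem8a* had a median of 1.17 CPM and a highest value of 1.94 CPM. Each of these libraries carries an hour of the day in its label, and the hours run through day and night. Every comparison with them below therefore mixes age with hour of day.

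The reverse pattern was seen for *mtfmt*, the enzyme that formylates the initiator methionyl-tRNA of mitochondria (chromosome 4, 34575330 to 34656341). It was present at 5.67, 6.15, 5.07, 8.24 and 2.82 CPM in JpA, a total of 815 counts, and only 1 count was recorded over the 4 JpB libraries, in replicate 26. The ratio of JpA to JpB was 1274 with a 95% interval of 228 to 50365 that covers counting error only. The sugar transporter family member *slc2a11* (chromosome 20, 17349714 to 17358443) was nearly absent from JpA. A gene of this family acts in the pigment cells of medaka, another fish. Its counts were 1 in JpA, in replicate 25, and 341 in JpB, where its levels were 0.910, 2.06, 2.21 and 0.970 CPM, a ratio of 218 (95% counting interval 38.9 to 8644).

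The nucleosome remodeller gene *chd5* (chromosome 20, 10097877 to 10143473) lay at 0.293, 0.781, 0.317, 0.608 and 0.398 CPM in JpA and at 4.45, 8.82, 7.84 and 6.70 CPM in JpB. No JpA library reached 1 CPM and no JpB library fell under 4 CPM. The log2 fold was 3.85 (SE 0.34, adjusted p = 0.000537). *abtb1*, which encodes a protein with ankyrin repeats and BTB domains (chromosome 1, 19781906 to 19789975), was measured at 3.44, 4.72, 4.26, 4.52 and 0.506 CPM in JpA and at 26.1, 40.1, 34.5 and 34.5 CPM in JpB. The groups did not overlap, JpA replicate 25 was the lowest library, and the log2 fold was 3.27 (SE 0.46, adjusted p = 0.00866).

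**Figure D1:**
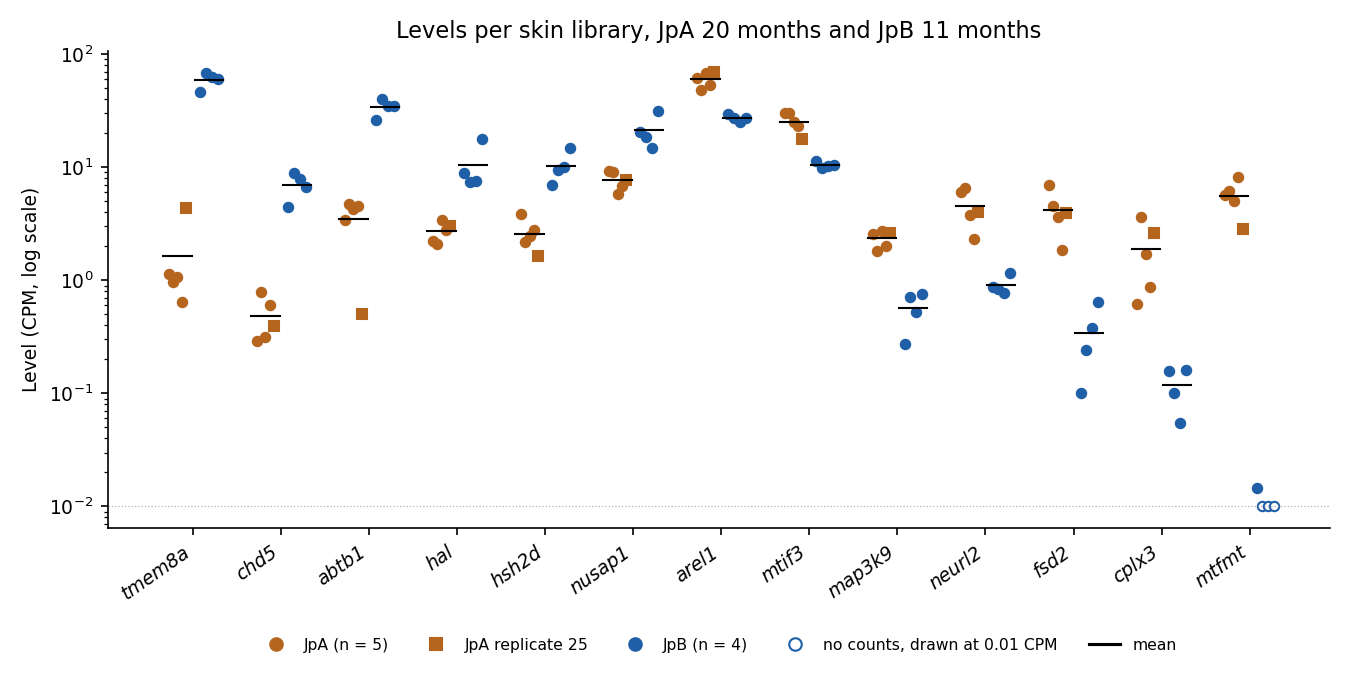
Level of 13 named genes in each of the 9 libraries, in CPM on a log axis, 1 point per library with JpA and JpB side by side. The square marks JpA replicate 25, open points had no counts and are drawn at 0.01 CPM. Among the genes drawn here that were higher in JpB, *tmem8a* separated the strains by the widest gap on the log axis. *mtfmt* was at or near 0 in all 4 JpB libraries.

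Across all genes, 685 of 19516 differed (3.51%), 320 of them higher in JpB (1.64%) and 365 lower (1.87%). Of these, 467 were called (2.39%), 215 higher in JpB (1.10%) and 252 lower (1.29%), and in 429 of the 467 the JpA and JpB levels did not overlap (over all genes tested, 7.33% lay without overlap higher and 6.44% lower in JpB). Most called models had no gene name: 329 carried a LOC identifier, and 138 had a symbol, 70 higher and 68 lower in JpB. The median size of the log2 fold was 1.52 over the called genes and 0.31 over all genes tested.

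How many genes were called depended on single libraries. Without JpA replicates 14, 22 or 23, the counts were 237, 264 and 217 genes. Without JpA replicate 24 or 25 they rose to 1028 and 710, and without JpB replicates 26, 27, 28 or 29 they fell to 178, 144, 123 and 108. The direction of the imbalance moved too, with 370 higher and 658 lower without JpA replicate 24, and 61 higher and 47 lower without JpB replicate 29. Among the 252 genes called lower, JpA replicate 25 was the highest JpA library in 115 (45.6%, against 34.2% of all genes tested), and JpA replicate 24 was the lowest in 133 (52.8%, against 24.2%). Of the 467 genes, 91 were called in every one of these 9 refits, 54 higher and 37 lower in JpB, and 3 were called in none of them.

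**Figure D2:**
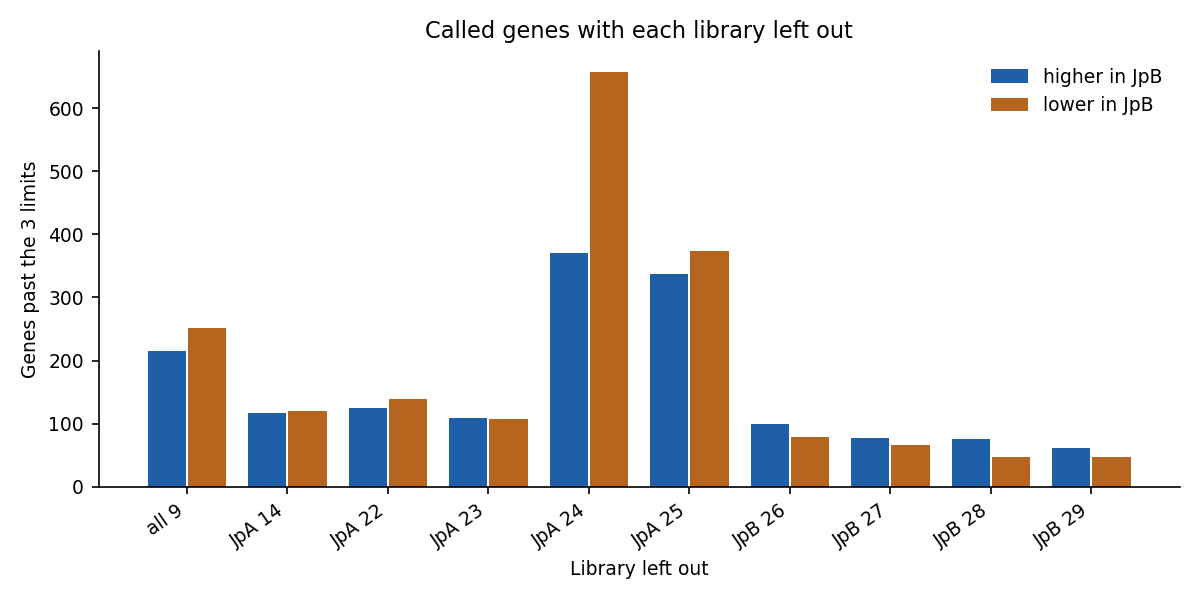
Number of genes called higher and lower in JpB, as paired bars, with all 9 libraries and with each library left out in turn. Leaving out JpA replicate 24 gave the most calls, 1028, and leaving out JpB replicate 29 the fewest, 108.

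The 91 genes included 20 with a symbol, named here after their values were seen. Beside *tmem8a*, *chd5*, *abtb1* and *slc2a11*, those higher in JpB were *hal*, *hsh2d*, *slc44a4*, *pctp*, *ttc24*, *rad54b* and the mitotic gene *nusap1*. *hal* encodes histidine ammonia-lyase, which turns histidine into urocanic acid, a compound of the skin surface that absorbs ultraviolet light in mammals. It was measured at 2.23, 2.12, 3.43, 2.81 and 3.04 CPM in JpA and at 8.86, 7.39, 7.62 and 17.9 CPM in JpB. The groups did not overlap and JpB replicate 29 was far above the other JpB libraries (log2 fold 1.94, SE 0.29, adjusted p = 0.0113). *hsh2d*, an adaptor of blood cell signalling in mammals, lay at 1.63 to 3.84 CPM in JpA and at 6.94, 9.37, 10.1 and 14.8 CPM in JpB, a log2 fold of 1.99 (SE 0.28, adjusted p = 0.00866).

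*slc44a4*, which encodes a choline transporter-like protein, was measured at 12.0, 6.48, 12.9, 11.6 and 13.3 CPM in JpA and at 31.2, 29.1, 32.1 and 44.7 CPM in JpB, so that every JpB library exceeded all JpA libraries more than 2-fold (log2 fold 1.61, SE 0.22, adjusted p = 0.00817). *pctp*, a carrier of phosphatidylcholine, had a log2 fold of 1.18 (SE 0.17, adjusted p = 0.00891), with JpA at 3.91 to 5.56 CPM and JpB at 9.38 to 13.1 CPM. The recombination repair gene *rad54b* had a log2 fold of 1.58 (SE 0.23, adjusted p = 0.0103) and *ttc24* of 1.40 (SE 0.20, adjusted p = 0.00817). Both models overlap another model, *fsbp* and LOC106700302. Overlap was judged from the start and end of whole models, without their exons, and the strand used in counting was not stated. Whether reads of such overlapping models were mixed was not tested. Over the 24-month JpA libraries alone, the JpB log2 fold was -0.05 for *rad54b* (adjusted p = 0.922). It was 0.45 for *pctp* (0.0782), 0.83 for *slc44a4* (0.0731) and -0.11 for *nusap1* (0.846), and none of these passed. *ttc24* (1.33, adjusted p = 1.92e-06), *hal* (1.99, 0.000147) and *hsh2d* (1.28, 0.000303) did.

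The genes lower in JpB in all 9 refits, beside *mtfmt*, were *arel1*, *mtif3*, *cplx3*, *fsd2*, *neurl2*, *hfm1*, *tshz3* and *znfx1*. The ubiquitin ligase gene *arel1* was measured at 61.1, 48.7, 68.1, 53.7 and 68.9 CPM in JpA and at 29.3, 27.4, 25.3 and 27.1 CPM in JpB. The lowest JpA library was well above the highest JpB library, and the log2 fold was -1.14 (SE 0.14, adjusted p = 0.00441), although its model overlaps *fcf1*. *mtif3*, an initiation factor of mitochondrial translation whose model overlaps *heca*, lay at 30.5, 30.2, 25.2, 23.4 and 17.6 CPM in JpA and at 11.5, 9.82, 10.2 and 10.4 CPM in JpB (log2 fold -1.28, SE 0.18, adjusted p = 0.00817). *znfx1*, a helicase-like protein of RNA and antiviral pathways, was at 67.9 to 115 CPM in JpA and at 33.4 to 44.8 CPM in JpB (log2 fold -1.21, SE 0.17, adjusted p = 0.00817). Over the 24-month JpA libraries alone its log2 fold was -0.90 and did not pass (adjusted p = 0.137).

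*tshz3*, a zinc finger transcription factor, was close to constant in JpB, at 1.27, 1.21, 1.23 and 1.24 CPM, and was measured at 3.47, 3.71, 4.00, 3.27 and 6.73 CPM in JpA. JpA replicate 25 was the highest library, and the log2 fold was -1.77 (SE 0.25, adjusted p = 0.00866) and -1.54 without it. The meiotic helicase gene *hfm1* was rare in both strains, at 0.470 to 0.695 CPM in JpA and with 4 counts in all of JpB (log2 fold -4.94, adjusted p = 0.00353). The synaptic complexin gene *cplx3* lay at 0.622, 3.64, 1.70, 0.873 and 2.64 CPM in JpA and at 0.159, 0.101, 0.0544 and 0.162 CPM in JpB, with wide spread in JpA and no overlap (log2 fold -3.95, SE 0.61, adjusted p = 0.0118).

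Further genes with a symbol were among the largest folds but depended more on the libraries. Higher in JpB were *bglap*, which encodes the bone protein osteocalcin (log2 fold 2.63, adjusted p = 0.0365), the cell division phosphatase *cdkn3* (2.22, 0.0484) and the adhesion gene *igsf5* (1.88, 0.0440). So were the kinetochore gene *spc24* (1.88, 0.0218), *kiaa1324* (1.84, 0.0361), whose model overlaps LOC102218363, and the cyclin-dependent kinase inhibitor *cdkn2c* (1.79, 0.0413). Over the 24-month JpA libraries alone *kiaa1324* passed (1.23, 0.0390). *bglap* (1.47, 0.146), *cdkn3* (0.16, 0.844), *igsf5* (0.77, 0.0947), *spc24* (-0.08, 0.920) and *cdkn2c* (-0.04, 0.966) did not. *bglap* was measured at 0.439, 1.40, 0.346, 1.10 and 0.253 CPM in JpA and at 2.20, 2.43, 4.70 and 8.27 CPM in JpB. None of these JpA libraries reached the lowest JpB library. In the 24-month JpA libraries *bglap* had a median of 0.820 CPM and a highest value of 8.51 CPM. With them added, its log2 fold was 1.67 and did not pass (adjusted p = 0.104).

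Among the genes lower in JpB, several reached their highest level in JpA replicate 25. The vessel factor *angpt2*, whose model overlaps *mcph1*, lay at 4.61, 2.51, 5.04, 1.59 and 14.9 CPM in JpA and at 0.581 to 1.13 CPM in JpB (log2 fold -2.84, SE 0.61, adjusted p = 0.0376). The nuclear import receptor *ipo4* was measured at 31.0, 19.6, 41.0, 15.7 and 106 CPM in JpA and at 5.53 to 12.5 CPM in JpB (log2 fold -2.31, adjusted p = 0.0483). The activin-binding protein *fstl3* lay at 169, 155, 164, 73.1 and 513 CPM in JpA and at 40.7 to 68.4 CPM in JpB (log2 fold -2.05, adjusted p = 0.0484). In all 3 the groups did not overlap, and without JpA replicate 25 the log2 folds were -2.11, -1.65 and -1.44. The iron hormone hepcidin, *hamp*, was measured at 13.6, 5.40, 17.4, 3.15 and 26.3 CPM in JpA and at 1.72 to 3.31 CPM in JpB (log2 fold -2.57, adjusted p = 0.0404). Its JpA levels varied widely, and the lowest of them lay within the JpB range.

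2 further genes lower in JpB did not overlap between the strains. The kinase gene *map3k9* was measured at 2.56, 1.82, 2.74, 2.01 and 2.64 CPM in JpA and at 0.275, 0.708, 0.526 and 0.755 CPM in JpB (log2 fold -2.06, SE 0.32, adjusted p = 0.0126). *cd8a*, the co-receptor of cytotoxic T cells, lay at 17.3, 11.4, 7.92, 14.8 and 20.3 CPM in JpA and at 4.80, 7.00, 5.06 and 4.80 CPM in JpB (log2 fold -1.40, SE 0.27, adjusted p = 0.0267). It was the member of the 26 leukocyte genes that differed (background 1.87% lower). Without JpA replicate 25 the genes *ncf4*, *siglec15* and *cd79a* were lower as well (4 of 26, background 3.86%). JpA replicate 25 had the highest *cd8a* level although its summed leukocyte genes, at 1229 CPM, were the lowest of the 9 libraries (2534 to 3587 CPM in the other 8).

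Large folds were also found in models without a name. LOC102222462 (chromosome 4, 3062837 to 3066201) had 23 counts in the 5 JpA libraries and 138569 in the 4 JpB libraries, at 793, 94.9, 189 and 1232 CPM in JpB (adjusted p = 0.00137). It was not absent from the strain: the 24-month JpA skin libraries ranged from 1.95 to 2583 CPM with a median of 85.9 CPM. LOC111611564, a long non-coding RNA model on chromosome 16 (24216068 to 24216708), was steady instead, at 0 to 0.304 CPM in JpA and 24.9 to 25.7 CPM in JpB (log2 fold 7.34, SE 0.47, adjusted p = 7.59e-05). In the 24-month JpA libraries its median was 1.52 CPM and its highest value 2.87 CPM. The JpB log2 fold over those libraries alone was 4.37 (adjusted p = 4.36e-05). LOC102227695 on chromosome 20 lay at 0.402 to 1.99 CPM in JpA and at 29.0, 2.37, 3.07 and 96.4 CPM in JpB, so that JpB replicates 26 and 29 carried most of its signal (log2 fold 4.86, adjusted p = 0.0371).

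On the lower side, LOC111607811, a pseudogene model on unplaced sequence, was measured at 1.56 to 3.07 CPM in JpA and had 3 counts in JpB, a ratio of 160 (95% counting interval 54.2 to 780). LOC102217235 had 1 count in JpB and was uneven in JpA, at 0.0366, 6.87, 0.576, 1.48 and 0.579 CPM, a ratio of 448 (79.9 to 17775). LOC111608451 had 4 counts in JpB and was at 10.2 CPM in JpA replicate 25, against 0.418 to 2.15 CPM in the other JpA libraries.

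Genes of cell division were the list with the most members higher in JpB. Of 43 members tested, 7 were higher (background 1.64%) and 0 lower in edgeR's test (25 higher and 1 lower at an unadjusted p under 0.05, a limit that 11.4% of all genes passed as higher and 14.8% as lower; DESeq2 gave 24 and 0, where 14.4% of all genes differed), and the median log2 fold was 0.84 against -0.03 over all genes. The 7 were *nusap1*, which organises the spindle, the checkpoint kinase *bub1*, the kinetochore protein *cenpf*, the chromosomal passenger *incenp*, the mitotic kinase *cdk1*, the spindle motor *kif11* and the topoisomerase *top2a*. *nusap1* was measured at 9.22, 9.05, 5.82, 6.87 and 7.70 CPM in JpA and at 20.4, 18.4, 14.9 and 31.2 CPM in JpB (log2 fold 1.46, adjusted p = 0.0128). The log2 folds of the others ran from 1.00 (*top2a*, adjusted p = 0.0415) to 1.60 (*bub1*, adjusted p = 0.0196). Of the 9 refits with 1 library left out, *nusap1* was called in 9, *bub1* in 8, *cenpf* in 7 and *incenp* in 5. *cdk1* and *kif11* were each called in 2 refits, and *top2a* in 0. The summed level of the list was 526 to 835 CPM in JpA and 673 to 1247 CPM in JpB, highest in JpB replicates 26 and 29, so the sums overlapped.

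Without JpA replicate 25, 20 of the 43 were higher (background 3.75% higher and 3.86% lower), and with JpA libraries of either control word alone, 9 (Sham, where 20.8% of all genes differed) or 8 (0pt, where 4.37% did) were higher. The result did not hold against the older JpA fish of the same month: with the 24-month JpA libraries added, the median log2 fold was -0.21, and *top2a* (-0.21, adjusted p = 0.777), *kif11* (-0.14, 0.873) and *cdk1* (-0.091, 0.931) changed sign. Median levels in those libraries were 20.7 CPM for *nusap1* and 45.3 CPM for *cenpf*, against 36.0 to 73.6 CPM for *cenpf* in JpB and 8.73 to 21.6 CPM in the JpA fish of 20 months.

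Skeletal muscle genes lay lower in JpB, and the size of the difference followed which JpA libraries were used. Of 18 members tested, 3 were lower (background 1.87%) and 0 higher in edgeR's test (12 lower and 0 higher at an unadjusted p under 0.05, background 14.8% and 11.4%; DESeq2 gave 11 and 0, background 14.4% in either direction), and the median log2 fold was -1.08. The summed level was 992 to 3640 CPM in JpA and 746 to 1169 CPM in JpB. The 3 were the thick filament gene *mybpc1* (log2 fold -1.12, adjusted p = 0.0255), the actin-binding gene *xirp2* (-1.44, 0.0444) and the thin filament chaperone *klhl40* (-1.35, 0.0499). *mybpc1* lay at 84.0 CPM in JpA replicate 24 and at 151 to 186 CPM in the other JpA libraries, against 64.3 to 76.0 CPM in JpB.

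Muscle genes also stood among the largest folds in the lower direction. *klhl31*, a Kelch protein of muscle, was measured at 115, 162, 74.7, 38.7 and 45.0 CPM in JpA and at 9.36, 23.9, 13.3 and 18.2 CPM in JpB (log2 fold -2.43, adjusted p = 0.0252). *fsd2*, a protein of striated muscle in mammals whose model overlaps LOC102228031, lay at 6.99, 4.59, 3.63, 1.86 and 3.98 CPM in JpA and at 0.101 to 0.647 CPM in JpB (log2 fold -3.62, SE 0.54, adjusted p = 0.0103). *neurl2*, a ubiquitin ligase adaptor of muscle in mice, had a log2 fold of -2.32 (SE 0.32, adjusted p = 0.00817), and the muscle LIM protein *csrp3* of -2.08 (adjusted p = 0.0421). JpA replicate 24 was the lowest JpA library for *klhl31*, *fsd2*, *neurl2* and *csrp3*. With the 3 Sham libraries alone 13 of the 18 list members were lower in JpB (median -1.28, with 20.8% of all genes differing). With the 2 0pt libraries alone 0 of the 18 differed (median -0.52, with 4.37% of all genes differing). With the 24-month JpA libraries added, 6 of the 18 were lower and 0 higher (median -0.97, with 3.84% of all genes differing). The part of the amount of muscle in each skin sample in these values was not tested.

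**Figure D3:**
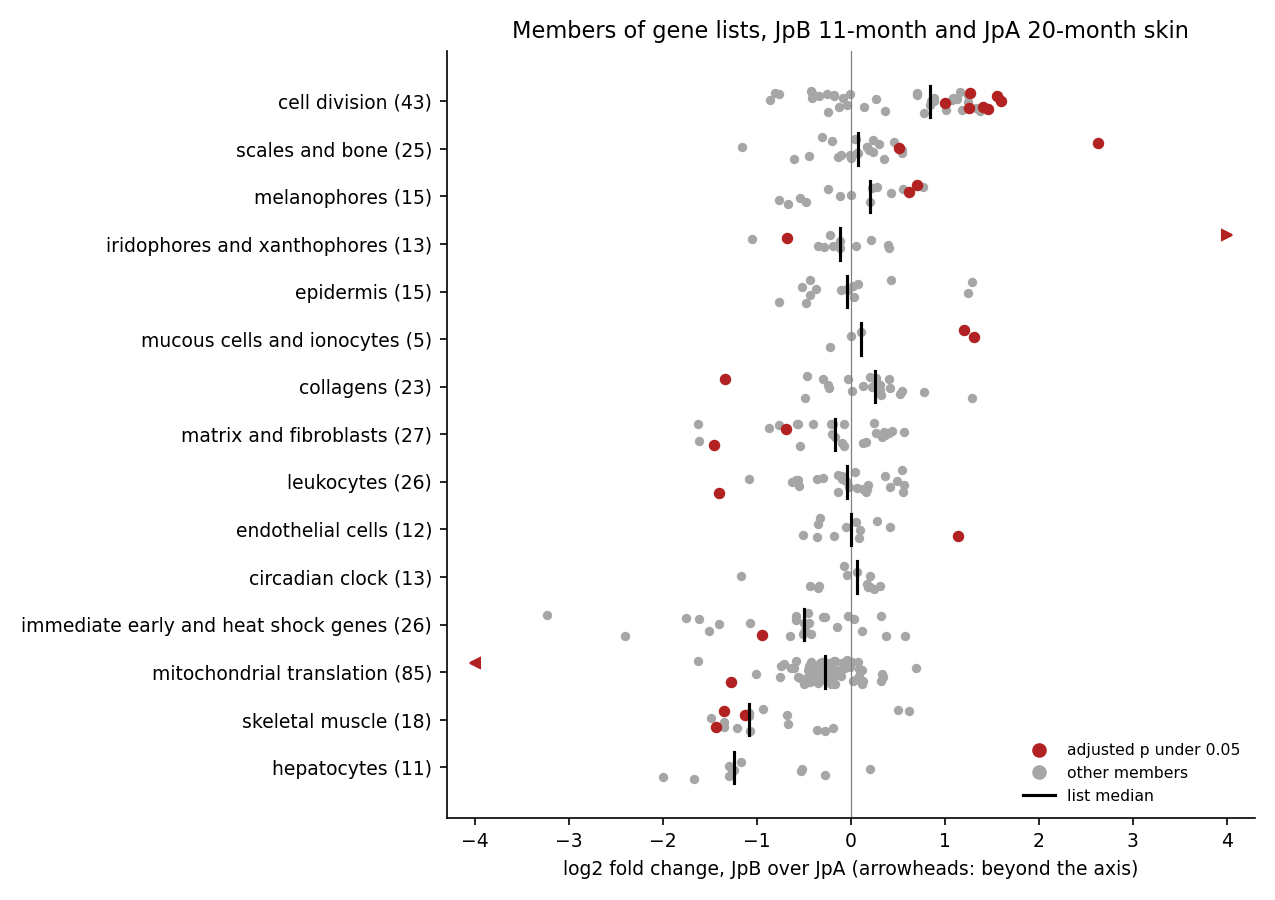
Log2 fold of JpB over JpA for each tested member of 15 gene lists, 1 point per gene (red where it differed, arrowheads beyond the axis), with a bar at the median of each list. The cell division list has its median at 0.84 and the skeletal muscle list at -1.08, and the median over all genes tested is -0.03.

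Most pigment cell genes tested did not pass the test. Of 15 melanophore genes tested, 2 passed edgeR's test, both with the higher level in JpB (background 1.64%). At an unadjusted p under 0.05, 4 were higher and 3 lower (background 11.4% and 14.8%). DESeq2 gave 2 and 1 (background 14.4% in either direction). The 2 that passed edgeR's test were *tyrp1*, an enzyme of the melanosome, and *mlana*, a melanosome protein. *tyrp1* was measured at 15.6, 16.7, 13.4, 18.2 and 15.2 CPM in JpA and at 27.7, 21.2, 29.2 and 24.6 CPM in JpB, without overlap (log2 fold 0.70, adjusted p = 0.0334). *mlana* was at 20.7 to 24.9 CPM in JpA and 26.7 to 40.2 CPM in JpB (log2 fold 0.62, adjusted p = 0.0484). Both changes were below 2-fold, and neither gene was called. Tyrosinase, *tyr*, which starts melanin synthesis, went the other way without passing the test, at 5.70 to 10.1 CPM in JpA and 3.76 to 6.54 CPM in JpB (log2 fold -0.67, adjusted p = 0.12).

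The summed melanophore genes were at 270 to 303 CPM in JpA and 340 to 358 CPM in JpB. With the 24-month JpA libraries added, 2 melanophore genes were lower in JpB, and *tyrp1* (log2 fold 0.30, adjusted p = 0.443) no longer passed. With the Sham JpA libraries alone 4 melanophore genes were higher and 1 lower, where 20.8% of all genes differed. With the 0pt JpA libraries alone 0 differed, where 4.37% of all genes did. Among 13 genes of iridophores and xanthophores, *slc2a11* was higher (background 1.64%) and *pts* was lower (background 1.87%). *pts*, which makes a precursor of the yellow pteridine pigments, lay at 12.0 to 16.3 CPM in JpA and 7.42 to 10.2 CPM in JpB (log2 fold -0.68, adjusted p = 0.0427).

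The 15 epidermal genes tested did not include any that differed in edgeR's test. At an unadjusted p under 0.05, 3 were higher and 3 lower (background 11.4% and 14.8%). DESeq2 gave 1 and 1 (background 14.4% in either direction). The median log2 fold was -0.04, with sums of 8174 to 11579 CPM in JpA and 7443 to 8487 CPM in JpB. These epidermal genes, which do not include keratins, were thus abundant as a sum in all 9 libraries. Of 5 genes of mucous cells and ionocytes, 2 of the secretory line were higher (background 1.64%). *spdef*, a transcription factor of goblet cells in mammals, was measured at 5.30, 2.25, 5.24, 5.54 and 3.04 CPM in JpA and at 11.0, 8.32, 9.62 and 10.4 CPM in JpB (log2 fold 1.20, adjusted p = 0.0410). *agr2*, which helps to fold mucins, lay at 72.9, 27.7, 58.9, 34.3 and 34.2 CPM in JpA and at 159, 87.0, 92.9 and 114 CPM in JpB (log2 fold 1.31, adjusted p = 0.0440). Neither gene overlapped between the strains in these 9 libraries. With the 24-month JpA libraries added, 0 of the 5 genes differed, where 3.84% of all genes did. In those JpA libraries *agr2* ranged from 24.9 to 329 CPM and *spdef* from 1.49 to 11.0 CPM.

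In the dermis, 1 of 23 collagen genes differed. Over all genes 1.64% were higher and 1.87% lower, the background of the counts in this paragraph with all 9 libraries. The collagen gene was *col25a1*, which encodes a collagen with a membrane anchor. It was measured at 26.6, 29.3, 21.5, 19.0 and 20.6 CPM in JpA and at 12.7, 9.03, 6.68 and 8.45 CPM in JpB (log2 fold -1.34, SE 0.21, adjusted p = 0.0135). The median log2 fold of the collagens was 0.26. With the Sham JpA libraries alone 5 collagens were higher and 1 lower (median 0.44, where 20.8% of all genes differed). With the 0pt JpA libraries alone 0 were higher and 4 lower (median -0.08, where 4.37% did). Of 27 matrix and fibroblast genes, the microfibril gene *mfap2* (log2 fold -1.45, adjusted p = 0.0241) and the transcription factor gene *twist1* (-0.69, 0.0274) were lower. Without JpA replicate 25, *timp3* and *pdgfrb* were lower as well (background 3.86%). Of the 27, an unadjusted p under 0.05 was reached by 1 as higher and 9 as lower (background of this limit 11.4% and 14.8%). DESeq2 gave 0 and 8 (14.4% of all genes in either direction). Of 25 scale and bone genes, *bglap* and the homeobox gene *dlx3* (log2 fold 0.51, adjusted p = 0.0496) were higher. Single genes differed in several other lists: the scavenger receptor *stab1* of 12 endothelial genes (1.14, 0.0496), whose model overlaps LOC102229428, the fatty acid elongase *elovl6* of 15 fat genes (-1.05, 0.0255), the RNA sensor *dhx58* of 12 interferon genes (-1.46, 0.0445), the kinase *cdk7* of 25 nucleotide excision repair genes (-0.88, 0.0267) and the receptor *erbb4* of 22 growth factor genes (-0.86, 0.0413), given as log2 fold and adjusted p.

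Immediate early and heat shock genes had a median log2 fold of -0.50 over 26 members, 1 of which was lower (background 1.87%). This was *egr1*, a transcription factor that answers stimulation within minutes. It lay at 22.9, 24.6, 34.1, 18.9 and 39.7 CPM in JpA and at 15.2, 12.1, 15.1 and 15.9 CPM in JpB (log2 fold -0.94, adjusted p = 0.0483). The unadjusted limit of 0.05 was passed by 1 member as higher and 9 as lower (background 11.4% and 14.8%). DESeq2 gave 0 and 6 (background 14.4% in either direction). The median of the list was -0.15 without JpA replicate 25 and 0.02 with the 0pt JpA libraries alone. It was -0.78 with the 24-month JpA libraries added, with 2 members lower where 3.84% of all genes differed, and -0.89 over the 24-month JpA libraries alone. With the Sham libraries alone 6 of the 26 were lower in JpB, where 20.8% of all genes differed. Of 85 genes of mitochondrial translation, *mtfmt* and *mtif3* were lower, with a median of -0.27 (background 1.87%). With the Sham JpA libraries alone 33 of the 85 were lower (median -0.45, where 20.8% of all genes differed). With the 0pt JpA libraries alone 2 were lower (median 0.06, where 4.37% did). With the 24-month JpA libraries added, 4 were lower (median -0.32, where 3.84% did).

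At an unadjusted p under 0.05, 11.4% of all genes were higher and 14.8% lower, and DESeq2 found 14.4% to differ, which is the background of the counts that follow. In edgeR's test no member differed among 31 proteasome genes (median -0.40, 6 at an unadjusted p under 0.05, DESeq2 0), 51 genes of oxidative phosphorylation (-0.16, 7 and 1), 70 cytosolic ribosomal proteins (-0.14, 8 and 4), 25 genes of sterol synthesis (-0.02, 4 and 2), 31 of base excision repair (0.06, 6 and 0, with *nthl1* and *mutyh* higher without JpA replicate 25) and 17 Hox genes (0.00, 2 and 0). Nor did any among genes of other tissues that skin samples can hold, 12 of neurons (0.06, 2 and 2), 11 of Schwann cells (0.15, 2 and 1) and 11 of hepatocytes (-1.25, 2 and 2). The hepatocyte sums were 432 to 654 CPM in JpA and 340 to 434 CPM in JpB. With the Sham JpA libraries alone, 15 of the 31 proteasome genes were lower in JpB (median -0.62), where 20.8% of all genes differed. With the 0pt JpA libraries alone 0 differed (median 0.09), where 4.37% of all genes did. With the 24-month JpA libraries added, 3 of the 31 were lower (median -0.53), where 3.84% of all genes differed.

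The 2 control words of the JpA libraries coincided with a difference in clock genes. *per3*, a repressor of the circadian clock, was measured at 182 and 238 CPM in the 0pt libraries (JpA replicates 22 and 24) and at 38.5, 32.3 and 31.7 CPM in the Sham libraries (JpA replicates 14, 23 and 25). *per1* lay at 105 and 145 CPM against 22.1, 22.9 and 26.3 CPM, and *clock*, an activator, at 7.32 and 9.04 CPM against 38.7, 43.7 and 57.7 CPM. The ratio of 0pt to Sham was 6.15 for *per3*, 5.27 for *per1* and 0.175 for *clock*. Of 13 clock genes, 11 did not overlap between the control words, against 42.8% of all genes tested. With 2 libraries against 3 this is given as a description, and the labels give no hour for these libraries.

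JpB, all 0pt, lay at 258, 85.5, 88.0 and 64.4 CPM for *per3*, 114, 60.5, 69.9 and 48.1 CPM for *per1* and 8.28, 12.6, 15.0 and 19.9 CPM for *clock*, on the side of the JpA 0pt libraries or between them and the Sham libraries. JpB replicate 26 was the library nearest to JpA 0pt in all 3. Over all 9 libraries none of the 13 clock genes differed between the strains in edgeR's test, 0 passed an unadjusted p under 0.05 and DESeq2 gave 0. Against the Sham libraries alone *per3* (log2 fold 1.87, adjusted p = 0.0293) and *per1* (1.63, 0.0146) were higher in JpB, and *clock* (-1.73, 0.0125) and *per2* (-0.64, 0.0450) were lower. Against the 0pt libraries alone *per3*, *per1* and *clock* had the opposite sign and did not pass the test (*per3* -0.76, adjusted p = 0.38, *per1* -0.77, 0.164, *clock* 0.77, 0.182).

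**Figure D4:**
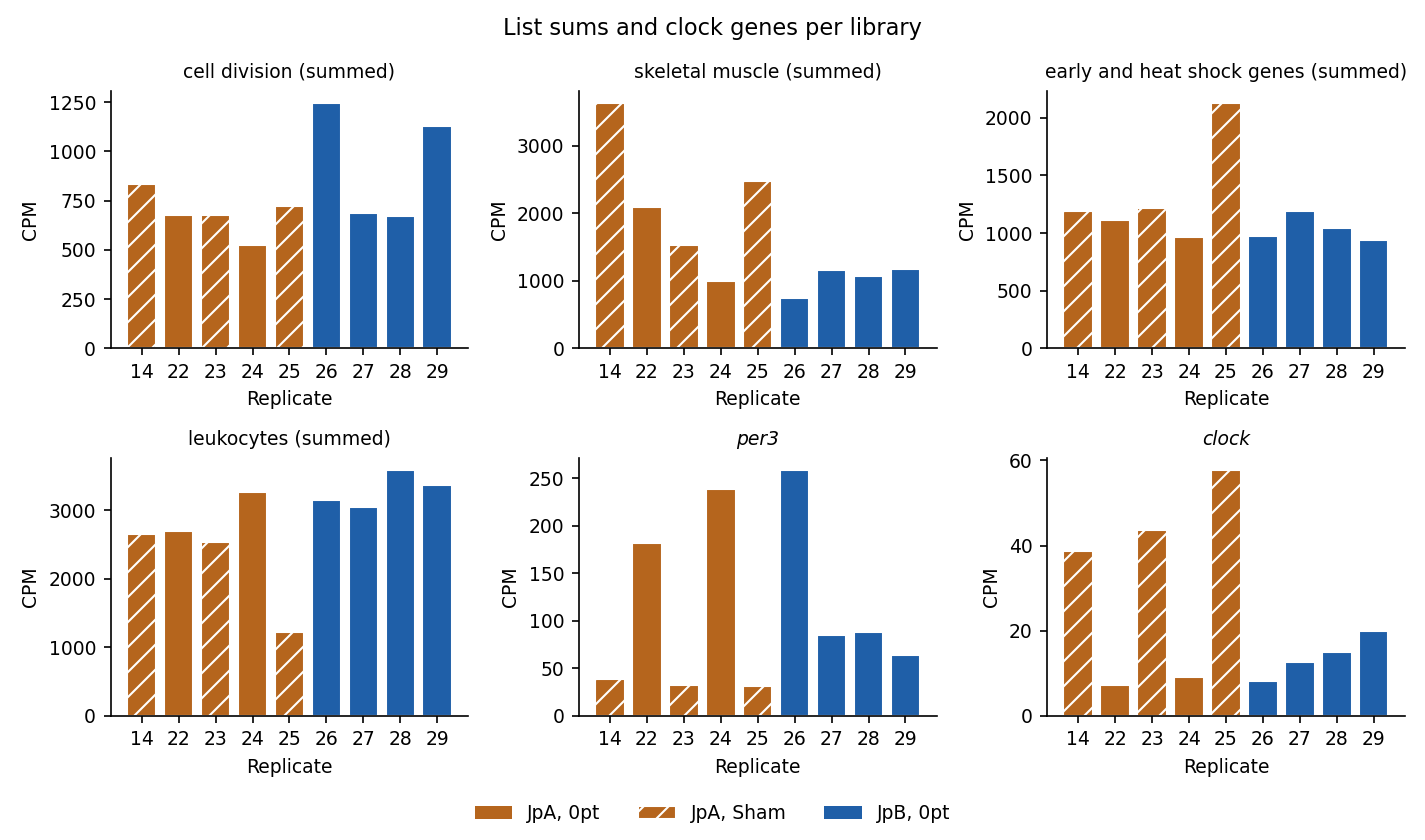
Summed CPM of 4 gene lists (cell division, skeletal muscle, immediate early and heat shock, leukocytes) and CPM of *per3* and *clock* in each of the 9 libraries, 1 bar per library with Sham libraries hatched. *per3* is high and *clock* low in the JpA libraries labelled 0pt, and JpA replicate 25 has the highest early gene sum, 2129 CPM, and the lowest leukocyte sum, 1229 CPM.

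The number of calls differed with the JpA libraries used, where the control word and the number of libraries change together. With the 3 Sham JpA libraries 2236 of 20159 genes were called (11.1%), among them 444 of the 467 called with all 9 libraries (95.1% of the 467 and 19.9% of the 2236). With the 2 JpA libraries of the same control word as JpB, 517 of 20533 were called (2.52%), among them 238 of the 467 (51% of the 467 and 46% of the 517). No shared gene changed sign.

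Skin of both strains was also sampled 2 years later by label date. The 4 JpA libraries were of 13 months and the 4 JpB libraries of 9 months, and they share no library with the 9 above. Each strain had libraries with the control word 0min and libraries with the word sham. All JpA libraries of that sampling are dated January and all JpB libraries May, so strain, age and label date cannot be told apart there either. In this later sampling *tmem8a* had 1.23 ± 0.334 CPM (SD, n = 4) in JpA and 40.9 ± 2.76 CPM (SD, n = 4) in JpB, a log2 fold of 5.04 (adjusted p = 1.71e-05). The later log2 folds were 4.21 for *chd5*, 3.32 for *abtb1*, 5.67 for *slc2a11*, -1.34 for *arel1*, -1.15 for *mtif3*, -1.78 for *map3k9* and -2.02 for *cd8a*, each with an adjusted p under 0.05 and the sign of the earlier sampling. LOC111611564 (6.90) and LOC111607811 (-7.37) had folds of like size in both samplings. *hal* was at a log2 fold of 0.17 in the later sampling (adjusted p = 0.765) and *hsh2d* at -0.29, and both differed between the samplings (difference 1.74, adjusted p = 0.0405, and 2.26, 0.00617). *tshz3* (0.04 later, adjusted p of the difference 0.00793), *slc44a4* (-0.54, 0.0107) and *ttc24* (0.23, 0.0159) changed as well. *igsf5*, higher in JpB in the earlier sampling, was lower in the later one (log2 fold -0.88, adjusted p = 0.0171). The genes *pctp* (later log2 fold 0.20, adjusted p = 0.656), *rad54b* (0.68, 0.448) and *nusap1* (0.58, 0.527) did not differ in the later sampling. Nor did *neurl2* (-0.77, 0.386), *znfx1* (-0.91, 0.154) and *cplx3* (-1.49, 0.0897). These kept the earlier sign, and their change between the samplings did not pass the test.

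Of the 467 genes called in the 20- and 11-month skin, 459 were tested in the later sampling, in which 2666 of 20861 genes differed (12.8%). Of the 459, 302 had the same sign (65.8%), against 60.6% of the genes not called, and 85 had the same sign and differed in it, while 12 differed with the opposite sign. The strain difference itself changed between the samplings in 134 of the 467, and in 1118 of 21051 genes tested (5.31%), 574 of them higher and 544 lower in the earlier sampling. The 467 were picked by their earlier fold, and the same libraries enter this test. The 5.31% is therefore no equal background for the 467 or for parts of them. Of the 404 called genes with at least 1 CPM, 61 kept their sign, differed in the later sampling and did not pass the test of a change between samplings. Among the 91 genes called with each library left out, 57 of the 88 tested later had the same sign (64.8%), and 37 differed between the samplings.

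**Figure D5:**
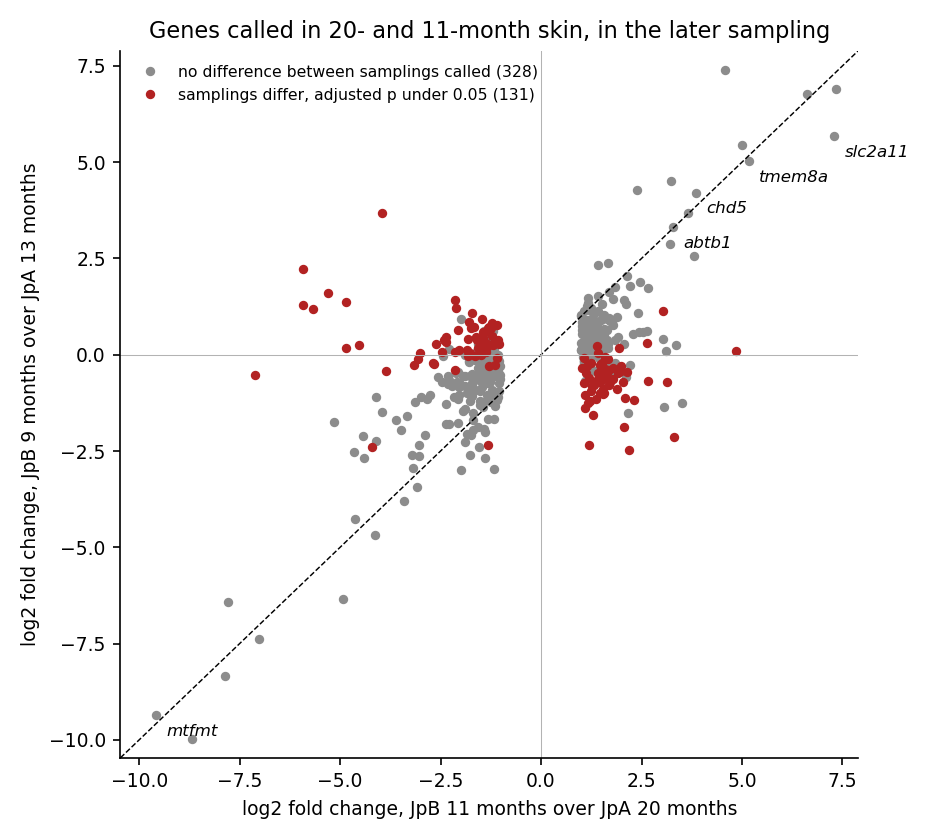
Log2 fold of JpB over JpA for JpB of 11 over JpA of 20 months (horizontal) and JpB of 9 over JpA of 13 months (vertical), for the 459 genes called in the first and tested in both, 1 point per gene. Red points, 131 genes, differed between the samplings, and grey points, 328 genes, did not pass that test. *tmem8a* lies near 5 on both axes.

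Among genes with a symbol and a mean of 1 CPM or more, the 10 described next had the smallest adjusted p for the change between samplings, 5 in each direction, and none of the 10 was called in the 20- and 11-month skin. Those with the more positive earlier fold, given with the later fold and the adjusted p of the difference, were the membrane receptor *paqr5* (0.43 and -2.28, 0.00294), *tmem79* (0.72 and -0.83, 0.00362), the lipid transporter *mfsd2a* (0.23 and -1.72, 0.00451), the transcription factor *klf6* (0.33 and -0.89, 0.00547) and *tspan13* (0.64 and -0.94, 0.00559). Those with the more negative earlier fold were *pcdh12*, a cadherin of vessels (-0.68 and 0.93, 0.00113), the secreted inhibitor *wfdc1* (-0.42 and 1.49, 0.00113), the complement component *c9* (-1.16 and 2.55, 0.00124), the integrin *itga10* (-0.04 and 1.09, 0.00362) and the laminin *lama2* (-0.11 and 1.24, 0.00460). *c9* belongs to the hepatocyte list, whose median log2 fold was -1.25 in the earlier and 3.30 in the later sampling, where 9 of 11 members were higher in JpB, and 8 of them differed between the samplings. The skeletal muscle list went from -1.08 to 0.38, with 2 of 18 members higher later and 3 that differed between the samplings. The cell division list went from 0.84 to 0.39. Of its 43 members 0 were higher and 1 lower later, and 0 differed between the samplings. The immediate early and heat shock list went from -0.50 to -1.19. Of its 26 members 0 were higher and 8 lower later, where 12.8% of all genes differed, and 4 differed between the samplings. The median log2 fold of the collagens was 0.26 in the earlier and 1.08 in the later sampling, and 8 of them differed between the samplings. Of 23 collagens, 17 were higher and 0 lower later, where 12.8% of all genes differed. The matrix and fibroblast list went from -0.17 to 0.49, with 12 of 27 members higher and 0 lower later, and 6 differed between the samplings.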

How the data were processed

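RNA was sequenced from skin of JpA and JpB platyfish. The count values, whole reads per gene model, were deposited by the authors, who mapped reads with TopHat2 to genome version 5.0 of X. maculatus and counted them with featureCounts (tool versions and strand setting not given in the sources used here). No sample column was left unused (0).

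Counts of the 9 libraries were tested with edgeR 4.0.16 (quasi-likelihood test, TMM scaling, filterByExpr with a smallest count of 10) in R 4.3.3, with Benjamini-Hochberg adjustment over all genes tested. Genes were called at an adjusted p under 0.05, an absolute log2 fold of at least 1 and a ROC area of at least 0.8. SE is the log2 fold divided by the root of the F statistic. The change between 2016 and 2018 was 1 contrast in a model of 4 group means. The pairs with the same fish label differed by a chi-square of 86.5 and 332 times its degrees of freedom, so neither pair is a repeat deposit of 1 library. All 9 entered as samples, although such a pair may come from 1 fish. Intervals of count ratios are exact and cover counting error only. In simulated data, 41% of genes changed by 1 on the log2 scale and 94% changed by 2 were found to differ in the 2016 contrast (100 genes each), and 11% and 73% in the difference between years. Changes were planted only in genes with a mean of 1 CPM or more. The simulated libraries were independent, without shared fish labels, control words or an outlying library such as JpA replicate 25.

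Gene lists and members were chosen with earlier results of these data known. Members were matched by gene symbol only, so models with a LOC identifier are not in the lists. Named genes were the 12 with a symbol and the 3 LOC models with the largest fold in each direction among called genes with a mean of 1 CPM or more, the 4 members of a described list with the smallest adjusted p, the 5 genes in each direction with the smallest adjusted p for the change between years, and *mtfmt* and *tmem8a*. Others were named after their values were seen. Alternatives were DESeq2 1.42.0, limma 3.58.1 (voom with fish label as a block), edgeR's exact test, other scalings and filters, summed same-label libraries, 1 control word, added 24-month libraries, and each library left out. Figures used Python 3.11.15, pandas 2.3.3 and matplotlib 3.10.9.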

Additional observations from a re-analysis of the deposited data

Results flagged for a closer look

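Dixon's test assumes normally spread values. It was run on CPM, mostly of genes picked because they differed, so its usual rate of about 1 in 20 is no background here. Among 184 groups of 4 or 5 libraries, 17 had a library far from the others by this test (9.24%). JpA replicate 25 was that library in 10 of them: *tmem8a* (4.38 CPM, nearest 1.13), *angpt2* (14.9, nearest 5.04), *ipo4* (106, nearest 41.0), *fstl3* (513, nearest 169), LOC111608451 (10.2, nearest 2.15), *slc2a11* (0.0362, the other 4 at 0), the sums of the matrix genes (5792, nearest 3729), immediate early and heat shock genes (2129, nearest 1219) and amino acid transporters (1481, nearest 755), and the median correlation with the other libraries (0.892, nearest 0.952). JpA replicate 22 was far above the rest for LOC102217235 (6.87 CPM). For *slc2a11* in JpA, and for *mtfmt* and LOC102217235 in JpB, the library set apart held 1 count and the others none. Such groups pass the test by construction. Among the JpB libraries, replicate 29 stood apart for *hal* (17.9 CPM, nearest 8.86), replicate 27 for *cd8a* (7.00, nearest 5.06) and the fat gene sum (669.6, the lowest), replicate 26 for *mtfmt* (0.0144, the others at 0) and the sum of mitochondrial translation genes (1728), and replicate 28 for LOC102217235 (0.0181, the others at 0).

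Among the genes named by the rule given in the methods, the strain difference of 23 changed between the 20- and 11-month skin and the later sampling by the test of that difference. The earlier log2 fold minus the later one was positive for *paqr5* (2.68), *tmem79* (1.53), *mfsd2a* (1.92), *klf6* (1.20), *tspan13* (1.55), *hsh2d* (2.26), *igsf5* (2.73), *agr2* (2.07), *hal* (1.74), *dlx3* (0.85) and LOC102227695 (4.74). It was negative for *pcdh12* (-1.64), *wfdc1* (-1.94), *c9* (-3.74), *itga10* (-1.16), *lama2* (-1.38), *col25a1* (-1.57), *kiaa1614* (-2.57), *xirp2* (-2.06), *mfap2* (-1.60) and LOC111608451 (-6.66). The fitted values of LOC102222462 (20.68) and LOC102217235 (-13.68) rest on groups with few or no counts and are no measure of size. In the later sampling LOC102222462 was at 222 CPM in 1 JpA library and at most 0.238 CPM in the JpB libraries.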

How the results depend on the processing

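With all 9 libraries 685 genes differed and 467 were called (215 higher, 252 lower). With each library left out in turn, 111 to 1619 differed and 108 to 1028 were called, 61 to 370 higher and 47 to 658 lower. Differing, called, higher and lower counts were, in that order, 2806, 1283, 489 and 794 with DESeq2, 2125, 1197, 470 and 727 with edgeR's exact test, 2358, 1032, 548 and 484 with limma-voom and the fish label as a block, 4751, 1627, 617 and 1010 with same-label JpA libraries summed, and 4203, 2236, 897 and 1339 with the Sham JpA libraries alone. The cause of these differences was not tested. Other scalings and filters, the 0pt libraries alone and the added 24-month libraries kept all counts within 1.5 times, and the largest shift of the median of all genes under another scaling was 0.042. Calls leaned to lower in JpB by 54.0% with all 9, and by 64.0% without JpA replicate 24. Without scaling beyond the total count they leaned to higher, with 272 called higher and 237 lower. The change between the samplings gave 574 higher and 544 lower genes, 1164 and 1089 with DESeq2, and 292 to 926 and 219 to 829 with each library left out.

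Of 59 named genes that differed, 30 no longer passed with the 24-month JpA libraries added and 25 with the 0pt JpA libraries alone. Added 24-month libraries also reversed *top2a* (-0.21, adjusted p = 0.777), *pck2* (-0.24, 0.755), *kif11* (-0.14, 0.873) and *cdk1* (-0.091, 0.931). Leaving out a JpB library removed 38 to 43 of the 59, and leaving out JpA replicate 24 or 25 removed 0. List counts with 1 control word or with the 24-month libraries were chosen after seeing the data. No label pairs a JpA library with a JpB library, so the strains were not compared in pairs. Strain, age and label date are confounded, and control words are uneven. Genes that did not pass with 5 against 4 libraries are not shown to be equal.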

Other observations

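JpA replicate 25 was the highest JpA library in 34.2% of all genes tested. The genes that follow were picked after their values were seen, because they were extreme in it. The transcription factor *fosl1* was at 166 CPM in it against 5.09 to 24.6 CPM in the other JpA libraries, *atf3* at 94.3 against 4.53 to 9.10 CPM, the polyamine enzyme *odc1* at 1539 against 117 to 240 CPM, the matrix protease *mmp9* at 1079 against 155 to 262 CPM, and the haem oxygenase *hmox1* at 126 against 6.80 to 41.5 CPM. In the JpB libraries none of these genes exceeded the highest of the other JpA libraries. The antigen presentation gene *cd74* was at 716 CPM, against 1744 to 2213 CPM in the other JpA and 2183 to 2619 CPM in the JpB libraries. The library of the same fish label, JpA replicate 24, did not share these levels.

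Called genes were found on every chromosome, from 0.893% of the genes tested on chromosome 24 to 3.75% on chromosome 20 (36 of 960). Over all genes tested the share was 2.39%. On chromosome 21, which carries the macromelanophore loci, 17 of 572 were called (2.97%), a share passed by chromosomes 6, 17 and 20. Of 54 models on unplaced or other sequence, 5 were called (9.26%).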
